A study of Mus musculus with 18 samples.

Results

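The suppressors of cytokine signalling (SOCS) are a family of intracellular inhibitors, and its 8 genes Socs1, Socs2, Socs3, Socs4, Socs5, Socs6, Socs7 and Cish were described here in mouse macrophages. Members were taken by symbol from the array's gene annotation, which gave them 24 of the 45101 probe sets and made them 8 of 18193 annotated genes. Cells of RAW264.7, a virus-transformed mouse macrophage line, received a sub-fraction of the medicinal herb Hypericum perforatum at 10 ug/mL (called fraction), a mixture of 4 compounds of that herb (called 4CS), or solvent alone (0.1% DMSO, called vehicle). The 4CS held 0.08 uM quercetin, 0.07 uM amentoflavone, 0.03 uM pseudohypericin and 0.2 uM chlorogenic acid. Each treatment was combined with 10 ug/mL lipopolysaccharide (LPS), a cell wall component of bacteria that activates Toll-like receptor 4, or with none, and lasted 8 h, with application in darkness and then 30 min of room light in all 6 groups. The groups were fraction with LPS, 4CS with LPS, vehicle with LPS, fraction, 4CS and vehicle, with 3 arrays each. Whether replicate arrays stem from different cultures is not said in the labels, so p-values measure only the spread between arrays, which may be technical. All cells were of 1 line grown in culture, and the solvent content of the fraction and 4CS groups was not given separately in the labels.

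Each SOCS protein has an SH2 domain, which docks on phosphorylated tyrosines of receptors or kinases, and a carboxy-terminal SOCS box, which recruits elongins and cullin 5 to form a ubiquitin ligase. Cytokines activate Janus kinases (JAK) and STAT transcription factors, STAT factors raise SOCS transcription, and the SOCS proteins then dampen the same receptors, a classical negative feedback loop. Socs1 and Socs3 also block JAK activity directly, and in macrophages they are known as brakes on interferon signalling and on interleukin-6 signalling through the receptor chain gp130. Cish and Socs2 are best known for restraining receptors that act through STAT5, and Socs4 to Socs7 for links to growth factor and insulin signalling.

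The table of promoters from RefSeq (build GRCm38.p6) held 4 of the 8 members. Windows of 3 members are shown because Socs3 and Cish were the members that rose with LPS under every treatment and Socs1 fell with the fraction, as did Socs3. Each runs 5′ to 3′ on the strand of the gene, from 250 bases before to 50 bases after the listed start, and capitals mark matches to TTCNNNGAA, the palindromic form of a STAT binding site. The Socs1 window is chr16:10785487-10785786 on the minus strand, that of Socs3 chr11:117969317-117969616 on the minus strand, and that of Cish chr9:107296409-107296708 on the plus strand.
Socs3: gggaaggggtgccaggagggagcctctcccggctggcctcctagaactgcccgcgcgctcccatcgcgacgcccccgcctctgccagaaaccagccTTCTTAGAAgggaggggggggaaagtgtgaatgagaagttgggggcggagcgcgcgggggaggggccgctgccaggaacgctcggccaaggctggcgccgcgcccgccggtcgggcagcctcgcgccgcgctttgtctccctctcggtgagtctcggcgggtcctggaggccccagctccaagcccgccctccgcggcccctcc
Cish: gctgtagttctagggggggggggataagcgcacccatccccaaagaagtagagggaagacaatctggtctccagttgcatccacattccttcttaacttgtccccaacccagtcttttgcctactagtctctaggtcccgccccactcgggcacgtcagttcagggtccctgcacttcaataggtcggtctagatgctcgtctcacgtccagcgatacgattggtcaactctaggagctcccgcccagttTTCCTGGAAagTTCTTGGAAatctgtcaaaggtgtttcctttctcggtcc
Socs1: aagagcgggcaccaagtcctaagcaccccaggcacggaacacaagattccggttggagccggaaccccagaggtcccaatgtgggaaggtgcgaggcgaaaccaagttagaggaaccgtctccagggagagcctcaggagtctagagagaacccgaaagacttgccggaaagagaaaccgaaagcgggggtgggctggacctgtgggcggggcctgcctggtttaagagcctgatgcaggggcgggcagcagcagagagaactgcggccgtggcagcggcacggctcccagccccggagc
The Socs3 window held 1 match, TTCTTAGAA, at position -154 from the listed start. The Cish window held 2, TTCCTGGAA at position 1 and TTCTTGGAA at position 12, both just after the start. The Socs1 and Socs4 windows held no match. Of 32851 promoter windows of the same length, 8.3% held this motif on either strand. The form with a longer spacer, TTCNNNNGAA, was in 6.95% of windows, and a consensus NF-kB site in 4.51%, and neither matched in any of the 4 members' windows. No 2 matches overlapped, and a match describes letters only. The annotated Socs3 gene (chromosome 11, 117966079 to 117970336) extends upstream of its window, so that window lies inside the gene as annotated. Socs1 lies on chromosome 16 (10783808 to 10785536), Cish on chromosome 9 (107296659 to 107302784), Socs4 on chromosome 14 (47276920 to 47296102) and Socs7 on chromosome 11 (97362292 to 97398542). Socs2 lies on chromosome 10 (95383903 to 95417321) and Socs5 on chromosome 17 (87107278 to 87137647).

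Values are signal intensities on a linear scale that the authors had scaled to the same trimmed mean on every array, and array medians lay between 52.1 and 66.8. The precision is limited by the number of arrays. Probe sets were tested where 3 or more of the 18 arrays had them at or above their median, and the brightest such probe set stood for each of 11547 genes. All 8 members had such a probe set, 18 of their 24 in all. Socs2 passed with 1 of its 6 probe sets and on 3 arrays only, so its signal lay under the array median on the other 15 arrays, and Socs7 lost 1 of 4. All 10 macrophage markers listed, among them Cd68, Adgre1 and Lyz2, were kept, against 6 of 27 markers of other cell types. The summed signal of those 6 kept markers was 306 to 335 in fraction with LPS, 214 to 336 in 4CS with LPS, 380 to 433 in vehicle with LPS, 156 to 239 in fraction, 266 to 326 in 4CS and 215 to 237 in vehicle, and its part in the results was not tested. In RNA of whole cultures, fewer cells and less RNA per cell cannot be told apart. Differences are log2 with standard errors from limma, and p-values are adjusted over all genes with a threshold of 0.05.

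The balance of rises and falls over all genes depended on the scaling. With LPS in vehicle cells 1161 genes were called higher and 2519 lower, against 672 and 2936 after centring each array on its median, and 1727 and 1574 after centring on the kept probe sets alone, a setting chosen after seeing the data. With the fraction in the absence of LPS the counts were 1837 higher and 1771 lower, against 940 and 1968, and 1344 and 2274, under those settings. Centring on the kept probe sets also gave 2223 higher and 1792 lower against 1330 and 2979 for LPS in fraction-treated cells, 1331 and 1244 against 961 and 1883 for LPS in 4CS-treated cells, and 1399 and 2439 against 1962 and 1781 for fraction against 4CS without LPS. For the interaction of fraction and LPS, centring on the median gave 58 higher and 28 lower against 103 and 144. No member's call changed direction under any of these settings.

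Socs3 and Cish were the members that LPS raised in all 3 treatments, and Socs3 had the largest difference of the family. With LPS in vehicle cells 2 of 8 members were higher and 0 lower, where 10.1% of all genes were called higher and 21.8% lower. The median log2 difference was 0.42 over the members and -0.07 over all genes. In fraction-treated cells LPS raised 3 of 8, Socs1 being the third, against 11.5% of all genes, and lowered 0, against 25.8%. In 4CS-treated cells it raised 2 of 8, against 8.32%, and lowered 0, against 16.3%. The medians over the members were 0.13 and 0.63 in these 2 comparisons, and over all genes -0.11 and -0.07. The LPS arrays were all above the others for 5 of 8 members in vehicle cells (14.7% of all genes), 3 in fraction cells (16%) and 3 in 4CS cells (14.4%). They were all below for 0 members in each, against 26.9%, 33.1% and 25.9% of all genes.

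Socs3, the inhibitor that docks on gp130, gave signals of 11232, 15741 and 15233 in vehicle cells with LPS, against 338, 375 and 479 in vehicle cells. All 3 LPS arrays lay far above the 3 others, a log2 difference of 5.15 ± 0.24 or 35.4-fold (adjusted p = 1.53e-11). In fraction-treated cells the signals were 7825, 8704 and 6628 with LPS, against 89.7, 123 and 120.5 without it. These arrays gave 6.12 ± 0.24 or 69.8-fold (adjusted p = 5.12e-13). In 4CS-treated cells they were 11681, 13272 and 12844 with LPS, against 516, 202 and 401 without it, or 36.2-fold (log2 5.18 ± 0.24, adjusted p = 8.72e-12). The brightest Socs3 probe set, 1455899_x_at, is of a kind open to cross-hybridization. The probe set 1416576_at, which is not, gave log2 differences of 5.37 in vehicle, 6.18 in fraction and 5.12 in 4CS cells, and 1456212_x_at gave at least 4.47 in each. At 1416576_at the fraction arrays without LPS lay under their array medians, so the rise in fraction cells is at least 44.5-fold. In every treatment the 3 probe sets rose together, with p-values adjusted over all kept probe sets, of which 24.5%, 29.2% and 18.5% were called in vehicle, fraction and 4CS cells.

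Cish, which binds cytokine receptors and limits STAT5 activation, gave 227, 448 and 462 in vehicle cells with LPS, against 55.8, 108 and 102 in vehicle cells. The groups did not overlap, 1 LPS array lay well below the other 2, and the difference was 2.09 ± 0.33 or 4.25-fold (adjusted p = 6.19e-05). In fraction-treated cells Cish was 272, 313 and 264 with LPS, against 67.6, 75.9 and 150.2 without (log2 1.62 ± 0.33, 3.08-fold, adjusted p = 0.000585). In 4CS-treated cells it was 235, 284 and 330.1 with LPS, against 78.5, 101 and 148 without (log2 1.41 ± 0.33, 2.66-fold, adjusted p = 0.00319). Every LPS array was above every array without LPS in each pair.

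Socs1, which inhibits JAK kinases downstream of interferon receptors, was dim throughout. Its signals were 97.5, 122 and 106 in vehicle cells with LPS, against 42.8, 85.4 and 75.8 in vehicle cells. The arrays did not overlap, but the difference of 0.73 ± 0.44 missed the threshold (adjusted p = 0.231). In fraction-treated cells the signals were 35.7, 111 and 34.8 with LPS, against 10.7, 28.0 and 29.7 without. That difference passed (log2 1.32 ± 0.44, adjusted p = 0.0249), with both group means under the array median, so no fold is given. It was 0.84 without replicate 1 of the fraction group (adjusted p = 0.151) and 0.77 without replicate 2 of the fraction with LPS group (adjusted p = 0.185). It also did not pass when fitted on the compared arrays alone (adjusted p = 0.151). In 4CS-treated cells the signals were 118, 130 and 124 with LPS, against 62.6, 63.0 and 55.3 without, with no overlap (log2 1.04 ± 0.44, adjusted p = 0.0962). This difference passed when fitted on the compared arrays alone (1.04, adjusted p = 0.0115) and on log2 of the value plus 32 (0.76, adjusted p = 0.0364). Whether LPS acted on Socs1 unequally between treatments was tested as the interactions of fraction and of 4CS with LPS, which did not pass.

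Socs2, known as an inhibitor of growth hormone signalling, stayed near or under the array median. It gave 48.2, 49.4 and 29.2 in vehicle cells with LPS, against 22.5, 10.0 and 15.7 in vehicle cells. The LPS arrays were all higher, yet the difference of 1.43 ± 0.60 did not pass (adjusted p = 0.0792). It passed without replicate 3 of the 4CS group, an array outside this pair that enters the estimate of spread (adjusted p = 0.0492). It also passed when the variances were not made to follow intensity (adjusted p = 0.0496). The other differences of Socs2 with LPS were 0.10 in fraction cells and 1.05 in 4CS cells, and neither passed.

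Socs4, Socs5, Socs6 and Socs7 were well above the array medians on all 18 arrays and had no call for LPS in any treatment. In vehicle cells their differences with LPS were -0.04, 0.03, 0.11 and 0.09, with 95% confidence intervals of -0.47 to 0.39 for Socs4, -0.29 to 0.34 for Socs5, -0.09 to 0.31 for Socs6 and -0.16 to 0.34 for Socs7. Their other kept probe sets had no LPS call either. These intervals end below those of Socs3 and Cish in the same comparison.

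**Figure D1:**
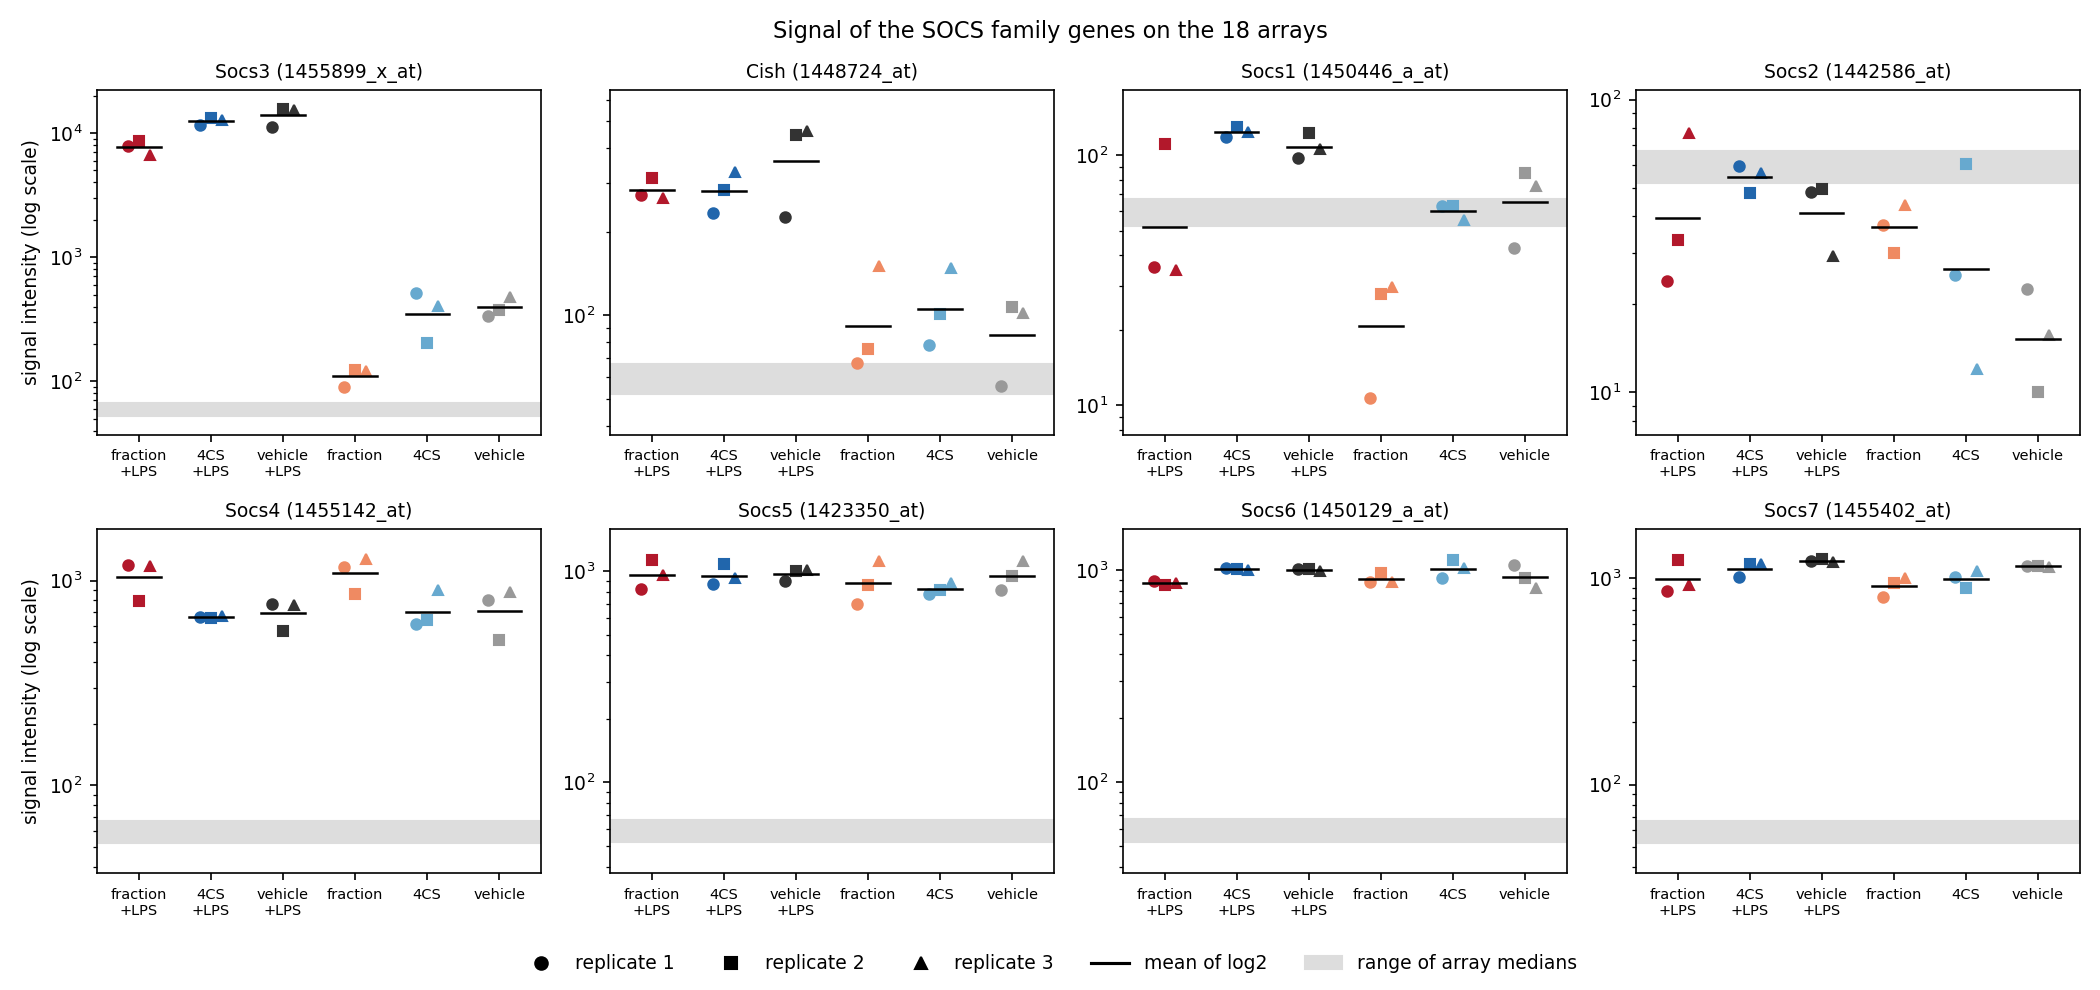
Signal intensity (log scale) of the 8 SOCS family genes on each of the 18 arrays, with points for arrays, bars for the mean of log2 values and a grey band for the range of array medians (52.1 to 66.8). Socs3 lay between 6628 and 15741 on the 9 LPS arrays and between 89.7 and 516 on the others. At the brightest of 4 Socs4 probe sets the arithmetic mean, which the bars do not show, was 1100 in fraction and 1054 in fraction with LPS. In the other groups it was 664 to 733. The other Socs4 probe sets, not drawn here, had no call for fraction against vehicle.

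The fraction lowered Socs3 and Socs1 in the absence of LPS, and Socs3 in its presence. Against vehicle without LPS, 1 of 8 members was higher (Socs4), where 15.9% of all genes were called higher, and 3 were lower (Socs1, Socs3, Socs7), where 15.3% of all genes were. The median difference was -0.08 over the members and 0.02 over all genes. Against vehicle with LPS, 1 was higher (Socs4), against 11.1% of all genes, and 1 lower (Socs3), against 12.7%. The medians were -0.25 over the members and -0.02 over all genes. Without LPS the fraction arrays were all above the vehicle arrays for 1 member (22.2% of all genes) and all below for 3 (20.6%), and with LPS for 1 (17.4%) and 2 (18.7%). The comparisons without and with LPS share no arrays.

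Without LPS, Socs3 was 89.7, 123 and 120.5 in fraction-treated cells, against 338, 375 and 479 in vehicle cells. All fraction arrays were lower, by 3.58-fold (log2 -1.84 ± 0.24, adjusted p = 8.07e-06). With LPS it was 7825, 8704 and 6628 in fraction-treated cells, against 11232, 15741 and 15233 in vehicle cells. Again all 3 fraction arrays were lower, by 1.81-fold (log2 -0.86 ± 0.24, adjusted p = 0.0118). Without replicate 3 of the fraction with LPS group the difference was -0.75 and no longer passed (adjusted p = 0.0593). Probe set 1416576_at gave -2.16 ± 0.32 without LPS and -1.36 ± 0.32 with it, and 1456212_x_at gave -1.63 ± 0.25 and -0.81 ± 0.25. At 1416576_at the fraction arrays without LPS lay under their array medians, so the fall there is at least 2.75-fold. All 3 probe sets were called lower at both LPS states when p-values were adjusted over all 25612 kept probe sets, of which 24.7% were called without LPS and 18.9% with it. At 1456212_x_at the arrays of the LPS groups overlapped.

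The higher fold with LPS in fraction-treated than in vehicle cells (69.8 against 35.4) was tested as the interaction of fraction and LPS. For Socs3 it was 0.98 ± 0.33 and did not pass (95% confidence interval 0.28 to 1.68, adjusted p = 0.163). Of the 8 members 0 were called in this interaction by limma and 1 had an unadjusted p under 0.05, where 2.14% of all genes were called. Without replicate 2 of the 4CS group, whose array enters only the estimate of spread, the Socs3 interaction passed (adjusted p = 0.0309). On 1416576_at the interaction was 0.81 ± 0.46 and on 1456212_x_at 0.81 ± 0.35, with adjusted p-values of 0.527 and 0.356 over all kept probe sets, of which 1.05% were called. The value at 1416576_at rests in part on fraction arrays under the array median. The interaction was 0.59 for Socs1, -0.47 for Cish and -1.33 for Socs2, and none of these passed.

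Socs1 was 10.7, 28.0 and 29.7 in fraction-treated cells without LPS, against 42.8, 85.4 and 75.8 in vehicle cells. Every fraction array was lower and under its array median, a log2 difference of -1.65 ± 0.44 and at least 1.08-fold when set against the array median (adjusted p = 0.00749). Without replicate 1 of the fraction group it was -1.18 (adjusted p = 0.0504). With LPS, Socs1 was 35.7, 111 and 34.8 in fraction-treated cells, against 97.5, 122 and 106 in vehicle cells. One fraction array lay among the vehicle arrays and 2 lay far below, and the difference of -1.07 ± 0.44 did not pass (adjusted p = 0.0912). Without the high array, replicate 2 of the fraction with LPS group, it was -1.62 and passed (adjusted p = 0.0105).

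Cish did not pass with the fraction at either LPS state. The difference was 0.11 without LPS (95% confidence interval -0.57 to 0.79) and -0.35 with it (-1.04 to 0.33), and the arrays overlapped in both comparisons. Socs2 gave 1.26 ± 0.60 without LPS (adjusted p = 0.125) and -0.06 with it, at signals under the array median. Its 3 fraction arrays without LPS (37.3, 30.0 and 43.7) were all above the 3 vehicle arrays.

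Socs4, whose mammalian protein has been tied to degradation of the epidermal growth factor receptor, had a call that rested on 1 of 4 probe sets. At the brightest, 1455142_at, the signals without LPS were 1167, 862 and 1271 in fraction-treated cells, against 807, 512 and 879 in vehicle cells, and the arrays overlapped. The difference was 0.61 ± 0.21 or 1.52-fold (adjusted p = 0.0300). With LPS they were 1186, 798 and 1179 in fraction-treated cells, against 769, 566 and 763 in vehicle cells, without overlap, and the difference was 0.58 ± 0.21 or 1.50-fold (adjusted p = 0.0451). The other probe sets 1421273_at, 1421274_at and 1421275_s_at gave -0.17, 0.55 and -0.08 without LPS and -0.26, -0.06 and 0.43 with it, none called. Centring the arrays on their medians also ended the call without LPS (0.48, adjusted p = 0.0525). Averaged over its probe sets, Socs4 gave 0.23 (adjusted p = 0.332) and 0.17 (adjusted p = 0.507). The call without LPS was lost without replicate 2 of vehicle, replicate 1 of fraction or replicate 3 of fraction (adjusted p = 0.199, 0.0898 and 0.124). The call with LPS was lost without any 1 of 9 arrays, namely replicate 1 of fraction, replicate 2 of 4CS, replicates 1 and 3 of fraction with LPS, replicates 2 and 3 of vehicle with LPS, and each replicate of 4CS with LPS (adjusted p between 0.0506 and 0.188).

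Socs7, which has been linked to insulin receptor substrates and to the adaptor Nck, was 807, 949 and 1003 in fraction-treated cells without LPS, against 1141, 1151 and 1137 in vehicle cells. The fraction arrays were all lower, by 1.25-fold (log2 -0.32 ± 0.12, adjusted p = 0.0468). This value lay next to the threshold, and leaving out any 1 of 11 arrays took it past 0.05 (adjusted p between 0.0507 and 0.210). These were all 3 vehicle arrays, replicates 1 and 2 of fraction, replicate 1 of 4CS, replicates 2 and 3 of vehicle with LPS, replicate 3 of fraction with LPS, and replicates 2 and 3 of 4CS with LPS. With LPS it was 865, 1228 and 927 in fraction-treated cells, against 1217, 1233 and 1203 in vehicle cells, and -0.29 ± 0.12 did not pass (adjusted p = 0.0835). Without replicate 2 of the fraction with LPS group this was -0.44 (adjusted p = 0.00742). The probe sets 1434834_at and 1420766_at gave -0.43 and -0.25 without LPS and -0.35 and -0.12 with it, none called.

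Socs5 and Socs6 had no call with the fraction. Socs5 signals ran between 701 and 1126 over all arrays, and its differences were -0.12 (95% confidence interval -0.44 to 0.19) without LPS and -0.01 (-0.33 to 0.31) with it. Socs6 was 891, 849 and 864 with fraction and LPS, against 1006, 1011 and 993 with vehicle and LPS. All 3 fraction arrays were lower, yet -0.21 ± 0.10 did not pass (adjusted p = 0.125). The 2 other kept Socs6 probe sets pointed the other way, 0.59 ± 0.21 at 1435492_at (adjusted p = 0.0604) and 0.43 ± 0.25 at 1452764_at. Without LPS the Socs6 difference at its brightest probe set was -0.03, with a 95% confidence interval of -0.23 to 0.17. The 2 others again had higher means in fraction than in vehicle cells, at log2 signals of 6.49 against 5.92 (1452764_at) and 8.00 against 7.77 (1435492_at).

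**Figure D2:**
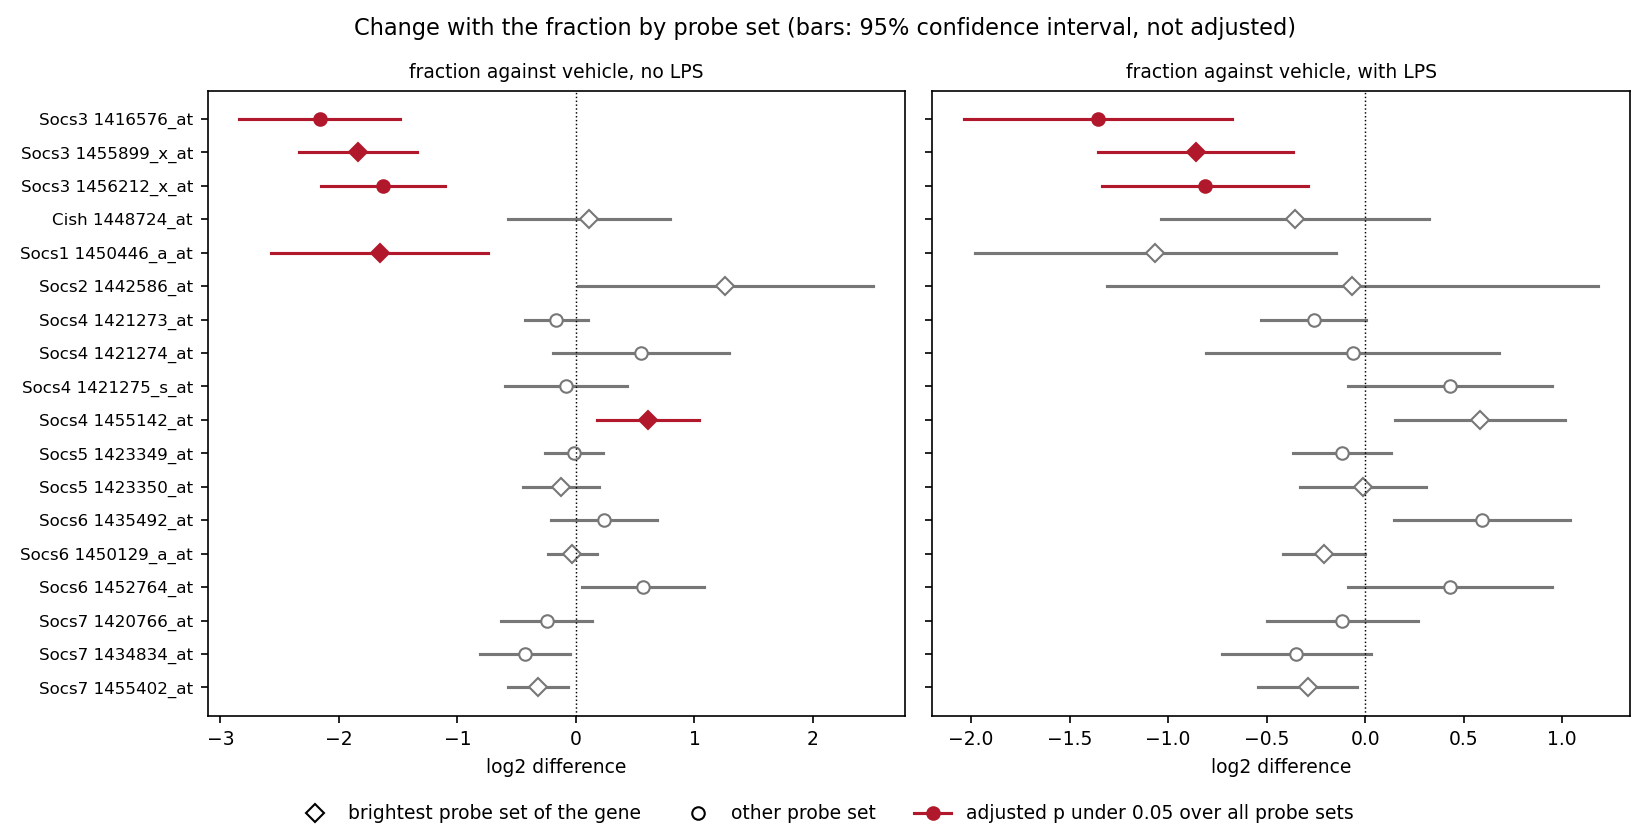
Log2 difference of fraction against vehicle for each of the 18 kept member probe sets, without LPS at left and with LPS at right, with bars for the unadjusted 95% confidence interval and red for an adjusted p under 0.05 over all probe sets. The 3 Socs3 probe sets lay between -2.16 and -1.63 without LPS and between -1.36 and -0.81 with it, whereas those of Socs4 and Socs6 lay on both sides of 0 in both panels.

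No member was called for the 4CS at either LPS state, and several intervals were wide. Against vehicle 0 of 8 members were called by limma without LPS and 0 with LPS, and 0 had an unadjusted p under 0.05. Of all 11547 genes 0% were called in both comparisons, and 565 without and 934 with LPS had an unadjusted p under 0.05. The medians over the members were -0.07 and -0.04. The 4CS arrays were all above the vehicle arrays for 0 members and all below for 1 at each LPS state, against 4.4% and 3.91% of all genes without LPS and 7.44% and 5.2% with it. Socs3 gave 516, 202 and 401 in 4CS-treated cells without LPS, against 338, 375 and 479 in vehicle cells, and the groups overlapped. Its difference was -0.18 (95% confidence interval -0.68 to 0.32) without LPS and -0.15 (-0.64 to 0.35) with it. At this probe set the fraction gave -1.84 (-2.33 to -1.34) without LPS, an interval apart from that of the 4CS. With LPS it gave -0.86 (-1.35 to -0.36), and the intervals of fraction and 4CS overlapped. Both sets of differences share the vehicle arrays, and fraction and 4CS are compared directly below. Probe set 1416576_at gave -0.09 (-0.77 to 0.59) without LPS and -0.34 (-1.02 to 0.34) with it. With LPS, 1456212_x_at gave -0.55 (-1.07 to -0.03), an interval that leaves out 0 and holds the fraction's -0.81 at that probe set, and it did not pass after adjustment (adjusted p = 0.629). Without LPS it gave -0.23 (-0.76 to 0.29). Socs1 was -0.12 (-1.04 to 0.81) without LPS and 0.20 (-0.73 to 1.13) with it, and Cish was 0.31 (-0.37 to 0.99) and -0.36 (-1.05 to 0.32). Socs7 arrays were all lower than vehicle at both LPS states, 1010, 898 and 1087 against 1141, 1151 and 1137 without LPS, but the differences of -0.20 and -0.13 did not pass (adjusted p = 0.999 and 0.789). Socs2 gave 0.79 (-0.47 to 2.05) without LPS. Among the other kept probe sets, Socs4 1421275_s_at with LPS (0.66, 0.14 to 1.17) and Socs6 1452764_at without LPS (0.53, 0.01 to 1.05) had unadjusted intervals above 0, and neither passed after adjustment. For the interaction of 4CS and LPS, 0 of 8 members were called, with 0 of the 8 and 412 of all genes at an unadjusted p under 0.05.

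The fraction and the 4CS, which were given at doses stated in different units, differed in Socs3 and Socs1, and in Socs4 at 1 of its 4 probe sets. Without LPS, 1 of 8 members was higher in fraction than in 4CS (Socs4), where 17% of all genes were, and 2 were lower (Socs3 and Socs1), where 15.4% were. With LPS, 1 of 8 was higher (Socs4), against 12%, and 2 were lower (Socs3 and Socs1), against 16.2%. The medians over the members were -0.14 without LPS and -0.19 with it, and those over all genes 0.00073 and -0.03. Without LPS the fraction arrays were all above the 4CS arrays for 0 members (23% of all genes) and all below for 2 (21.7%), and with LPS for 1 (18.9%) and 3 (23.9%). These comparisons use the same fraction arrays as those against vehicle.

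Socs3 was 89.7, 123 and 120.5 in fraction, against 516, 202 and 401 in 4CS without LPS, with no overlap (log2 -1.66 ± 0.24, 3.16-fold lower, adjusted p = 2.46e-05). With LPS it was 7825, 8704 and 6628 in fraction, against 11681, 13272 and 12844 in 4CS (log2 -0.71 ± 0.24, 1.64-fold lower, adjusted p = 0.0290). Probe set 1416576_at was called at both LPS states (log2 -2.08 and -1.02), and 1456212_x_at without LPS (-1.39) but not with it (-0.27), where 25.5% of all kept probe sets were called without LPS. The fall at 1416576_at without LPS is at least 2.59-fold, since its fraction arrays lay under the array median. Socs1 was 10.7, 28.0 and 29.7 in fraction, against 62.6, 63.0 and 55.3 in 4CS without LPS (log2 -1.54 ± 0.44, adjusted p = 0.0116). The mean of the 4CS group was itself about at the array median, so no fold is given. With LPS, Socs1 was 35.7, 111 and 34.8 in fraction, against 118, 130 and 124 in 4CS (log2 -1.26 ± 0.44, at least 1.64-fold lower, adjusted p = 0.0394). Socs4 at 1455142_at was 0.62 ± 0.21 higher without LPS (adjusted p = 0.0251) and 0.64 ± 0.21 with it (adjusted p = 0.0233). With LPS the groups did not overlap, at 1186, 798 and 1179 in fraction, against 661, 658 and 672 in 4CS. Averaged over its probe sets, Socs4 gave 0.20 without LPS (adjusted p = 0.405) and 0.13 with it (adjusted p = 0.634), neither called, and 1421273_at gave -0.29 and -0.19. The probe set Socs6 1435492_at was also called higher with LPS (0.66 ± 0.21, adjusted p = 0.0297 over all kept probe sets, of which 22.4% were called), where the brightest Socs6 probe set gave -0.22.

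Leaving out 1 array ended several of these calls. With LPS, leaving out replicate 1 or 3 of fraction with LPS, or any replicate of 4CS with LPS, ended the calls of Socs3 (adjusted p between 0.0506 and 0.115), Socs1 (between 0.0807 and 0.165) and Socs4 (between 0.0526 and 0.0984). Without LPS the Socs1 call ended without replicate 1 of fraction (-1.06, adjusted p = 0.0767). The Socs4 call there ended without replicate 1 or 3 of fraction or replicate 1 or 2 of 4CS (adjusted p between 0.0797 and 0.106). Socs3 without LPS was called in every one of these fits.

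**Figure D3:**
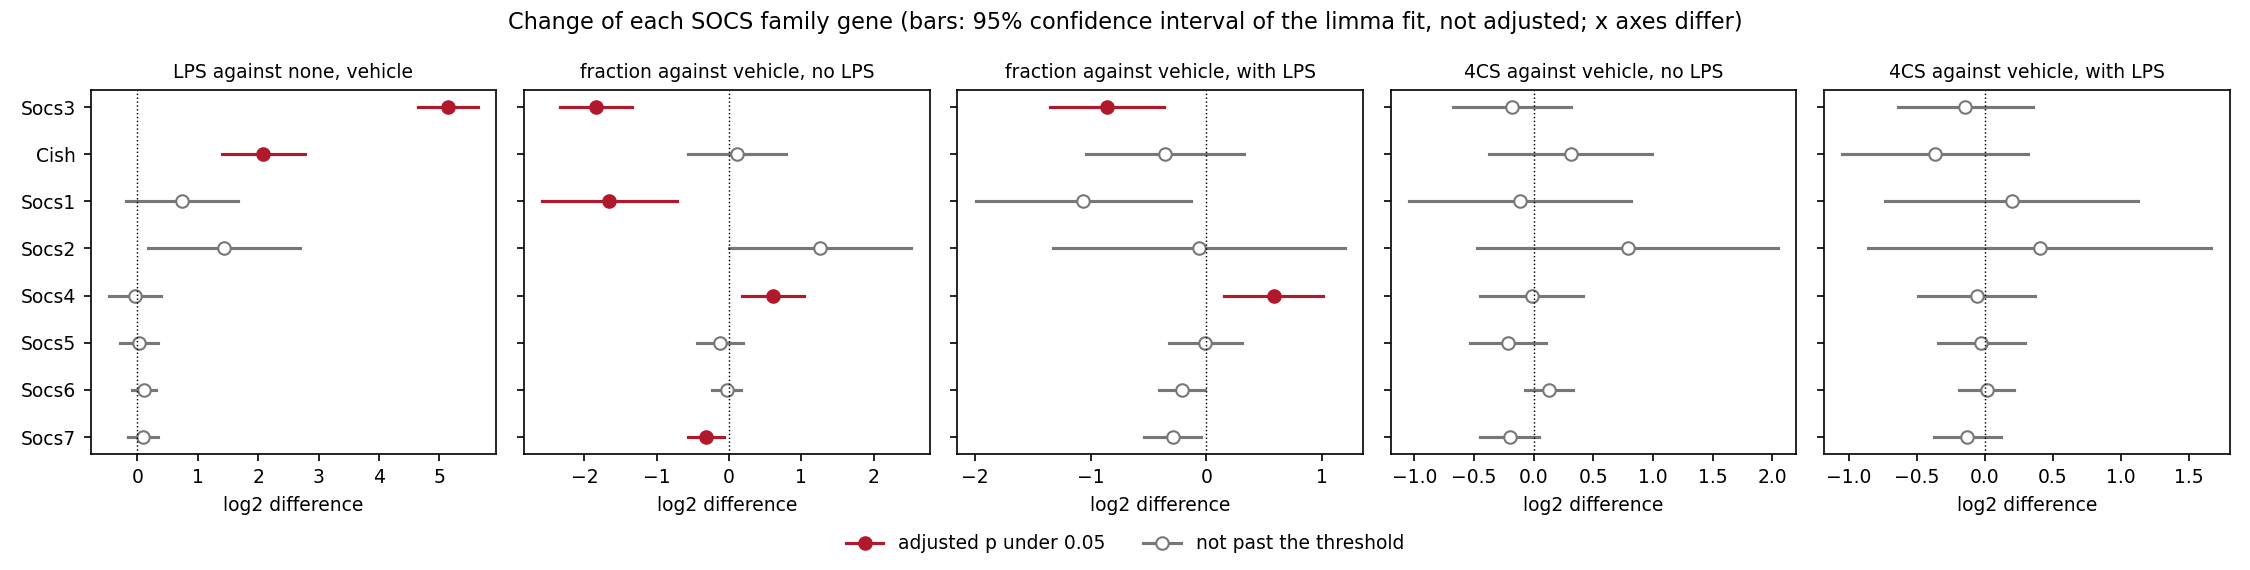
Log2 differences of the 8 SOCS family genes for LPS in vehicle cells, for fraction against vehicle and for 4CS against vehicle, with bars for the unadjusted 95% confidence interval and filled red points for an adjusted p under 0.05. Socs3 stood at 5.15 with LPS, at -1.84 and -0.86 with the fraction, and at -0.18 and -0.15 with the 4CS.

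Over the 6 groups Socs3 increased in the order fraction, 4CS, vehicle, fraction with LPS, 4CS with LPS, vehicle with LPS. Neighbours in this order were separated on every array except 4CS and vehicle, at each LPS state. The order was the same for all 3 probe sets, with 1 more overlap at 1456212_x_at between fraction with LPS and 4CS with LPS. Cish fell into 2 blocks, vehicle, fraction and 4CS below, and 4CS with LPS, fraction with LPS and vehicle with LPS above, with overlap inside each block and none between them. Socs1 had fraction lowest and apart, then fraction with LPS, 4CS and vehicle overlapping, and vehicle with LPS and 4CS with LPS highest and overlapping. The fraction with LPS group was not apart from this upper pair, since 1 of its arrays (111) lay among those of vehicle with LPS (97.5 to 122). Socs2, Socs4, Socs5 and Socs6 had overlap between all neighbours. In Socs7 the neighbours formed 1 overlapping chain except vehicle and vehicle with LPS. Fraction with LPS, which was not a neighbour, reached 1228 and so overlapped vehicle with LPS (1203 to 1233).

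Genes with the group pattern most like that of a member were found by the root mean square difference between centred group means over the 6 groups, for the 4 members whose group means spanned at least 1 log2 unit. Nearest to Socs3 were Maf, a macrophage transcription factor, at 0.43, Ccl5, a chemokine, at 0.66, and Tnc, an extracellular matrix glycoprotein, at 0.66. Unlike Socs3, the mean log2 of Ccl5 was higher in fraction with LPS (13.97) than in vehicle with LPS (13.59). Maf (9.60 against 10.52) and Tnc (9.63 against 10.67) were lower there. Of all genes, 0.00866% lay within 0.5 log2 units of Socs3. Nearest to Cish were Maff, a small Maf transcription factor, at 0.12, 4933432I03Rik at 0.13, and Rel, a subunit of NF-kB, at 0.15. Nearest to Socs1 were Cavin4 at 0.14, Pml, a nuclear body protein induced by interferon, at 0.15, and Pdcd1, which encodes the inhibitory receptor PD-1, at 0.15. Nearest to Socs2 were Gadl1 at 0.21, Gm8479 at 0.22 and 1810064F22Rik at 0.23, a match made at signals under the array median. Within 0.5 log2 units lay 2.47% of genes for Cish, 1.52% for Socs1 and 9.34% for Socs2. Maf, Tnc, Maff and Cavin4 also had at least 1 group mean under the lowest array median, so their distances and ranks rest in part on signals under it. All these distances are descriptions over 6 means of 3 arrays.

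**Figure D4:**
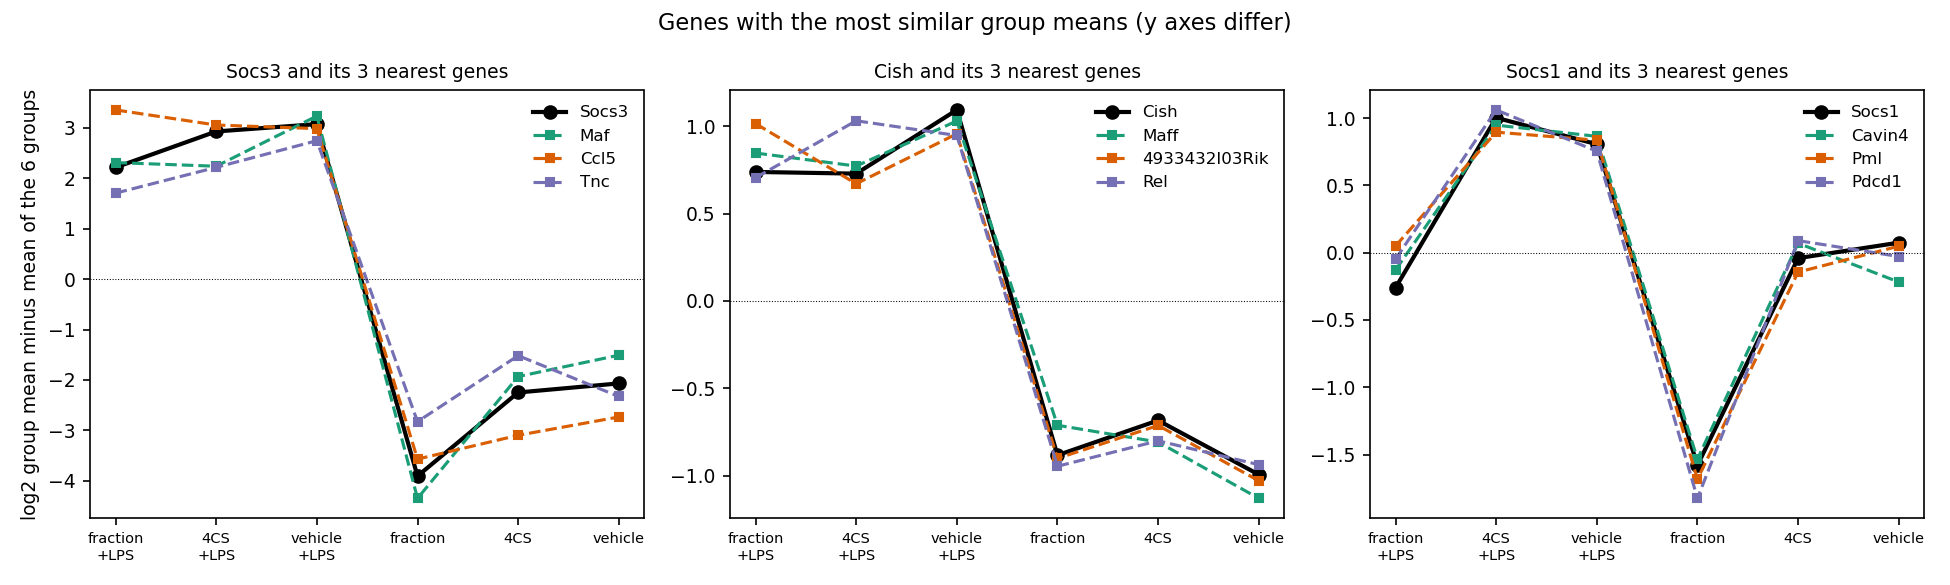
Centred mean log2 signal in the 6 groups for Socs3, Cish and Socs1 (black) and for the 3 genes nearest to each (dashed), with y axes that differ between panels. Fraction was the lowest group for Socs3 and Socs1, and vehicle the lowest for Cish.

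The cytokines that induce SOCS genes through STAT factors rose with LPS. Of 9 measured of 13 listed, 9 were higher in vehicle cells, against 10.1% of all genes, and 0 lower, against 21.8%. A gene was measured if 3 arrays reached their median, so a cytokine dim without LPS could enter through LPS arrays alone. The counts with LPS in this list are therefore set in part by that filter. Their median was 3.13, against -0.07 over all genes. The largest rise was that of Il6, the cytokine whose receptor Socs3 restrains, at 8.25 ± 0.56 or at least 66.1-fold. LPS raised 8 of 9 in fraction-treated cells, against 11.5% of all genes, and 8 of 9 in 4CS-treated cells, against 8.32%. It lowered 0 in both, against 25.8% and 16.3%. With the fraction and LPS, 5 of 9 were higher than with vehicle and LPS, against 11.1% of all genes, and 0 lower, against 12.7%. The median was 0.72 against -0.02, and the largest rise was Csf2, the macrophage and granulocyte growth factor GM-CSF, at 3.31 ± 0.51 or 9.89-fold. Without LPS, 2 were higher with the fraction, against 15.9% of all genes, and 1 lower, against 15.3% (median -0.12 against 0.02). The largest rise there was Il6 at 1.52 ± 0.56, with both groups under the array median, and the fall was Ifnb1, interferon beta, at -1.21 ± 0.41 or at least 1.14-fold. With LPS the Il6 signal was higher in fraction than in vehicle cells (1.74 ± 0.56, adjusted p = 0.0299), where Socs3 was lower. Il6 was named here after its value was seen, and a link between the 2 was not tested. Fraction against 4CS gave 2 higher and 1 lower without LPS, against 17% and 15.4% of all genes. With LPS it gave 5 higher and 0 lower, against 12% and 16.2%. These shares of all genes also apply to the same comparisons in the lists below, and no list was tested against them.

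Of the receptor chains on which SOCS proteins act, 17 of 24 were measured. LPS in vehicle cells raised 3, against 10.1% of all genes, and lowered 3, against 21.8% (median -0.10). The largest rise was in Il10ra, the interleukin-10 receptor chain, at 1.06 ± 0.26 and the largest fall in Il6ra, the interleukin-6 receptor, at -1.06 ± 0.24. In fraction-treated cells LPS raised 2 and lowered 7, and in 4CS-treated cells it raised 2 and lowered 2. The fraction without LPS raised 4, against 15.9% of all genes, and lowered 1, against 15.3% (median 0.14). The largest rise was Csf3r, the G-CSF receptor, at 1.61 ± 0.59 and the fall Ifngr2, an interferon gamma receptor chain, at -0.74 ± 0.14. With LPS the fraction raised 4, against 11.1% of all genes, and lowered 4, against 12.7% (median 0.03), with Il10ra at 1.07 ± 0.26 and Il6ra at -1.58 ± 0.24. Against 4CS, 4 were higher and 1 lower without LPS and 3 higher and 5 lower with it.

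Of the JAK and STAT genes 9 of 11 were measured. LPS in vehicle cells raised 5, against 10.1% of all genes, and lowered 1, against 21.8% (median 0.46). Stat5a, the factor upstream of Cish, rose by 1.53 ± 0.18, and Stat6, which serves interleukin-4, changed by -0.33 ± 0.09. LPS raised 4 and lowered 1 in fraction-treated cells and raised 4 and lowered 0 in 4CS-treated cells. The fraction without LPS raised 0, against 15.9% of all genes, and lowered 1, against 15.3% (median 0.10). This was Stat2, an interferon-activated factor, at -1.06 ± 0.25. With LPS the fraction raised 1, against 11.1% of all genes, and lowered 1, against 12.7% (median 0.04). These were Jak2 at 0.39 ± 0.13 and Stat3, the factor downstream of gp130, at -0.79 ± 0.15. Against 4CS, 2 were higher and 1 lower at each LPS state.

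The 8 partners of the SOCS box in its ubiquitin ligase were all measured. LPS raised 1 and lowered 0 in each treatment, and in vehicle cells (median 0.01) this was Ube2f, a NEDD8-conjugating enzyme, at 0.46 ± 0.08. Of all genes, 10.1% were higher and 21.8% lower with LPS in vehicle cells. Without LPS the fraction raised 1, against 15.9% of all genes, and lowered 3, against 15.3% (median -0.15). Among them were Cul5, the cullin of these ligases, at 0.59 ± 0.16 and Nedd8, the ubiquitin-like modifier of cullins, at -0.44 ± 0.08. With LPS the fraction raised 0, against 11.1% of all genes, and lowered 2, against 12.7% (median -0.10). Of these, Eloc, elongin C, had the larger fall at -0.34 ± 0.10. Against 4CS, 1 was higher and 4 lower without LPS and 0 higher and 2 lower with it.

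Inhibitors of the same pathway outside the SOCS family were measured for 12 of 13. LPS in vehicle cells raised 3, against 10.1% of all genes, and lowered 2, against 21.8% (median -0.04). Among them were Dusp2, a dual-specificity phosphatase, at 3.10 ± 0.18 and Ptpn6, the tyrosine phosphatase SHP-1, at -0.57 ± 0.10. LPS raised 2 and lowered 3 in fraction-treated and raised 3 and lowered 3 in 4CS-treated cells. The fraction without LPS raised 2, against 15.9% of all genes, and lowered 5, against 15.3% (median -0.09). Among these were Ptprc, the phosphatase CD45, at 0.53 ± 0.09 and Usp18, which restrains the interferon receptor, at -1.18 ± 0.19. With LPS the fraction raised 1, against 11.1% of all genes, and lowered 4, against 12.7% (median -0.20), with Ptprc at 0.33 ± 0.09 and Dusp2 at -0.79 ± 0.18. Dusp2 and Socs3 were thus both raised by LPS and both lower with the fraction and LPS. Against 4CS, 3 were higher and 3 lower without LPS and 1 higher and 3 lower with it.

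Other substrates and adaptors of SOCS proteins were measured for 7 of 12. With LPS in vehicle cells 2 were higher, against 10.1% of all genes, and 1 lower, against 21.8% (median 0.04). There were 3 higher and 0 lower in fraction-treated and 1 higher and 1 lower in 4CS-treated cells. Grb2, an adaptor, rose by 0.43 ± 0.07 and Irak1, a kinase of Toll-like receptor signalling, changed by -0.71 ± 0.17 in vehicle cells. The fraction without LPS raised 0, against 15.9% of all genes, and lowered 2, against 15.3% (median -0.17). The larger fall was that of Tirap, a Toll-like receptor adaptor that Socs1 targets, at -0.95 ± 0.13. With LPS the fraction raised Irak1 (0.51 ± 0.17) and lowered Grb2 (-0.38 ± 0.07), 1 in each direction (median -0.14). Of all genes, 11.1% were higher and 12.7% lower there. Against 4CS, 1 was higher and 2 lower without LPS and 1 higher and 1 lower with it.

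Other proteins with a SOCS box were measured for 19 of 28. With LPS in vehicle cells 2 were higher, against 10.1% of all genes, and 4 lower, against 21.8% (median -0.03). They were led by Asb1 at 0.94 ± 0.16 and Neurl2 at -1.11 ± 0.14. LPS raised 3 and lowered 8 in fraction-treated and raised 3 and lowered 1 in 4CS-treated cells. The fraction without LPS raised 4, against 15.9% of all genes, and lowered 1, against 15.3% (median 0.03). Among these were Spsb2, whose product targets inducible nitric oxide synthase, at 1.06 ± 0.24 and Wsb2 at -1.28 ± 0.10. With LPS the fraction raised 0, against 11.1% of all genes, and lowered 2, against 12.7% (median -0.17), with Wsb2 at -0.52 ± 0.10. Against 4CS, 5 were higher and 2 lower without LPS and 0 higher and 2 lower with it. The 4CS against vehicle gave 0 calls by limma in all 7 lists at both LPS states. The interaction of fraction and LPS gave 1 higher cytokine, 1 lower receptor chain, 1 higher substrate and 1 higher and 1 lower protein with a SOCS box. It gave 0 in the other 3 lists, where 2.14% of all genes were called in it. The interaction of 4CS and LPS gave 0 in all 7 lists, as over all genes.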

How the data were processed

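The data were total RNA profiles of RAW264.7 cells on 18 Affymetrix whole-genome mouse arrays. The authors deposited MAS5 signal intensity on a linear scale, per the submitters' processing notes, which name no version, and every array had a 2% trimmed mean of 500.0. Raw scans and detection calls were not used here.

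Of 45101 probe sets, 64 were controls, 34945 carried 1 symbol, 932 several and 9160 none. Symbols were updated through RefSeq by Entrez ID for 34741. Intensities under 1 (0.823% of values) were set to 1 and taken to log2. Probe sets at or above the array median on at least 3 arrays were kept (25612, of which 21553 had 1 symbol), and the brightest stood for each of 11547 genes. The R 4.3.3 package limma 3.58.1 was used to fit the 6 groups together (moderated variances that follow intensity, on 12 residual degrees of freedom), with 11 two-sided contrasts and Benjamini-Hochberg adjustment over all genes at 0.05. A fold with 1 group under its array median is a bound against that median, and with both under it none is given. Replicates correlated at 0.927 to 0.942 over probe sets. In simulations of LPS in vehicle cells over 11547 genes, with 200 changed, 42.2%, 74.6% and 89.0% of log2 changes of 0.5, 1 and 2 were recovered, and 3.91% of calls were false. The data had far more calls in that comparison (1161 higher and 2519 lower), and the simulated noise was independent between arrays. These rates therefore check the fit and need not hold for the reported tests.

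The members and the 7 gene lists were chosen with earlier results of these data known. All members were described. Of each list, the genes with the largest rise and fall among those called were named for LPS in vehicle and for the fraction against vehicle, and the 3 nearest genes for members spanning at least 1 log2 unit. Il6 with fraction and LPS was named after its value was seen. Alternatives were a replicate block, 2 other scalings, log2 of the value plus 32, other filters, no trend, only compared arrays, other uses of probe sets, and arrays left out. Centring on kept probe sets was chosen after seeing the data.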

Additional observations from a re-analysis of the deposited data

Results flagged for a closer look

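No SOCS family gene had an effect of LPS that differed by treatment after adjustment, and groups of 3 arrays are too small to test for a single outlying array. Among the listed genes around the family, the effect of LPS differed between fraction-treated and vehicle cells in 5, each by limma's interaction term adjusted over all genes. Of all 11547 genes, 247 (2.14%) were called in this interaction. The lists were chosen with earlier results of these data known, and whether their share exceeds that of all genes was not tested. Lif, a cytokine of the interleukin-6 group, had a log2 rise of 7.76 with LPS in fraction-treated cells and of 5.98 in vehicle cells (difference 1.78 ± 0.31, adjusted p = 0.00403). Wsb2, which carries a SOCS box, had 0.74 in fraction-treated cells and -0.03 in vehicle cells (difference 0.76 ± 0.14, adjusted p = 0.00729). Ifnar2, a chain of the type I interferon receptor, had -0.75 in fraction-treated cells and -0.21 in vehicle cells (difference -0.53 ± 0.12, adjusted p = 0.0274). Spsb2, also with a SOCS box, had -1.78 in fraction-treated cells and -0.45 in vehicle cells (difference -1.33 ± 0.34, adjusted p = 0.0429). Tirap, a Toll-like receptor adaptor, had 1.10 in fraction-treated cells and 0.38 in vehicle cells (difference 0.72 ± 0.18, adjusted p = 0.0441).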

How the results depend on the processing

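The 88 member differences were refitted under up to 29 alternatives each, 2475 values in all. Of these 2388 kept their direction or stayed without a call, 76 lost a call, 11 gained one and 0 called values reversed, and 116 changed sign with neither value called. Socs3 kept its calls for LPS in all 3 treatments, and for fraction against vehicle and against 4CS without LPS, under every alternative run, and Cish kept its 3 LPS calls wherever it was tested. With the 75th percentile filter 1 member was called for LPS in vehicle, in fraction and in 4CS cells, because Cish was not tested under that filter. Socs1, whose LPS call in the main fit was in fraction cells only, was not tested under it either. For fraction against vehicle without LPS the count was 2 with no trend, with the mean of probe sets and without the 6 arrays numbered 1. With LPS it was 1 under those 3 settings and with quantile normalization, no filter and every kept probe set. For fraction against 4CS the count without the arrays numbered 1 was 1 at each LPS state, and with LPS it was also 1 with no trend and with the mean of probe sets. The cause was not tested. The share of all genes called under each setting is not given beside these counts or those below. A changed count need therefore not be particular to the members.

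With each array left out in turn, the counts were 2 to 3 for LPS in vehicle, 2 to 3 in fraction and 2 in 4CS cells. They were 1 to 4 for fraction against vehicle without LPS and 0 to 4 with it, 1 to 3 and 0 to 4 for fraction against 4CS, 0 to 1 for fraction by LPS, and 0 for 4CS against vehicle and for 4CS by LPS. Where an arm kept 2 arrays, the spread was pooled over all groups.

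The labels do not say what a replicate number shares, so same-numbered arrays were not taken as pairs. Their deviations were correlated at small positive values (r from 0.018 to 0.170, over 0.1 in 9 of 45 pairs). The median r was 0.0875, against -0.037 for arrays of different number. All 18 arrays correlated best with their own number, a hint of a shared replicate structure from the data and not the design. With the replicate block the counts were 2, 3 and 2 for LPS in vehicle, fraction and 4CS cells, and 4 and 3 for fraction against vehicle without and with LPS, where Socs1 gained a call (adjusted p = 0.0471). Centring on the array median shifted the median of all genes by -0.13 for LPS in vehicle, by -0.13 for fraction and -0.11 for 4CS against vehicle without LPS, and by 0.12 and 0.17 in the interactions of fraction and of 4CS with LPS. Centring on kept probe sets shifted it by 0.12 for LPS in vehicle, 0.16 for LPS in fraction and -0.10 for fraction against 4CS without LPS. Signal near background limits Socs1 and Socs2.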
